A study of Mus musculus with 9 samples.

Results

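Mitosis and cytokinesis genes were followed in mouse liver as a list of 50 genes that act between the end of G2 and the separation of the daughter cells. The list was drawn up by gene name, with no measured value in the rule, though with earlier results of these data known. All 50 were found among the 15493 genes that had reads on annotated splice junctions. RNA came from the livers of C57BL/6 mice in 3 groups, with 3 libraries per group. WT animals were wild type. YAP animals carried an inducible transgene for YAP, the transcriptional co-activator held in check by the Hippo pathway. YAP_Lsd1ko animals carried the transgene and also a knockout of Lsd1, the histone demethylase gene whose official symbol is Kdm1a. Every group, WT included, had been injected with the virus AAV8-ApoE/ATT1-Cre. All 3 groups, WT included, were also given doxycycline, which induces the transgene, at 30 mg per L in the water for 14 days. There was no group with the knockout alone, the labels give no age, and they leave it unsaid whether each library is a different animal, so every p-value measures only the spread between these libraries.

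Entry into mitosis is driven by the kinase CDK1 with its B-type cyclins, and exit by the anaphase-promoting complex, which marks cyclin B and securin for destruction once the spindle checkpoint is satisfied. Transcripts of these genes accumulate together in G2 and M phase, under FOXM1, B-MYB and the MuvB complex, which reaches many of their promoters through the cell cycle genes homology region (CHR), often beside CCAAT boxes bound by NF-Y. Most hepatocytes of an adult liver are quiescent, many are polyploid, and non-parenchymal cells such as macrophages can divide there as well. In whole tissue, fewer cells of a dividing kind and less RNA per cell cannot be told apart.

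A gene was measured by its uniquely mapped reads across annotated introns that belong to that gene alone, given as CPM, the read count scaled to library depth, after TMM scaling. Such gene reads numbered 6516711 to 9267028 per library. All 50 genes passed the filter on low counts, and their reads summed to between 1568 in WT replicate 1 and 10542 in YAP_Lsd1ko replicate 1. Of the 805 introns of these genes that were read at all, 443 were read in WT replicate 1, 546 in YAP_Lsd1ko replicate 2 and between 690 and 779 in each of the other libraries. Only Ccnb1 lost much of its signal to multi-mapped reads, which made up 65.1% of its total, so its unique count covers an uncertain part of the gene's RNA. For the other 49 genes this share was 11.2% or less.

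The targeted genes and the replicates were checked before the comparisons. Kdm1a stood at 30.1, 38.3 and 31.3 CPM in WT, 36.7, 42.7 and 46.2 CPM in YAP and 15.8, 35.4 and 25.3 CPM in YAP_Lsd1ko, so the library labelled YAP_Lsd1ko replicate 2 was as high as WT. Yap1 was higher in YAP than in WT (log2 fold change 1.99 with SE 0.17, adjusted p = 0.000324) and lower in YAP_Lsd1ko than in YAP (log2 fold change -0.98 with SE 0.17, adjusted p = 0.0213). With the median count over junctions in place of the sum the Yap1 values were 0.49 and -0.15, and neither passed (adjusted p = 0.222 and 0.814). Of the 18 alternatives, 2 left the former difference short of the threshold and 8 the latter. For most of the listed genes the value of replicate 3 fell between those of replicates 1 and 2 of its group, in 46 of 50 in WT, 35 of 50 in YAP and 50 of 50 in YAP_Lsd1ko, against 66.8%, 50.7% and 62.2% of all genes read often enough for the check. A weighted sum of replicates 1 and 2 predicted replicate 3 with a median squared residual, in units of its counting variance, of 0.596 for WT, 1.07 for YAP and 1.59 for YAP_Lsd1ko. Counting error alone gives 0.455, and the other replicates were predicted with 1.71 to 4.23. Whether the third libraries are independent of the others cannot be told from these files. With replicate 3 of every group left out 0 genes of any kind passed in any comparison. The hepatocyte transcript Alb was abundant in every library, at 83664 to 186692 CPM.

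Libraries of the same group differed several-fold in these genes in WT and in YAP_Lsd1ko. Together the 50 genes took 255, 915 and 600 CPM in WT replicates 1 to 3, 918, 1001 and 1001 CPM in YAP and 1250, 365 and 923 CPM in YAP_Lsd1ko. The YAP libraries were near each other, whereas WT replicate 1 and the library labelled YAP_Lsd1ko replicate 2 were far below the rest of their groups. WT replicate 1 was the lowest of all 9 libraries for 44 genes, and YAP_Lsd1ko replicate 1 was the highest for 37. The same counts were not made over all genes. WT replicate 2 exceeded WT replicate 1 by a median of 5.07-fold over the 49 genes with reads in both, from 0.925-fold for Pttg1 to 14.9-fold for Ube2c. YAP_Lsd1ko replicate 1 exceeded the library labelled replicate 2 by a median of 4.77-fold, from 0.727-fold for Pttg1 to 14.0-fold for Cdc25c. Within YAP the highest library exceeded the lowest by a median of 1.45-fold, and by at most 2.84-fold, for Plk1. Multi-mapped junction reads per unique read ran opposite to these levels within WT and within YAP_Lsd1ko, at 2.18, 0.474 and 1.31 for WT replicates 1 to 3, 0.151 to 0.168 for YAP and 0.325, 1.47 and 0.927 for YAP_Lsd1ko replicates 1 to 3. Their part in the levels was not tested.

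**Figure D1:**
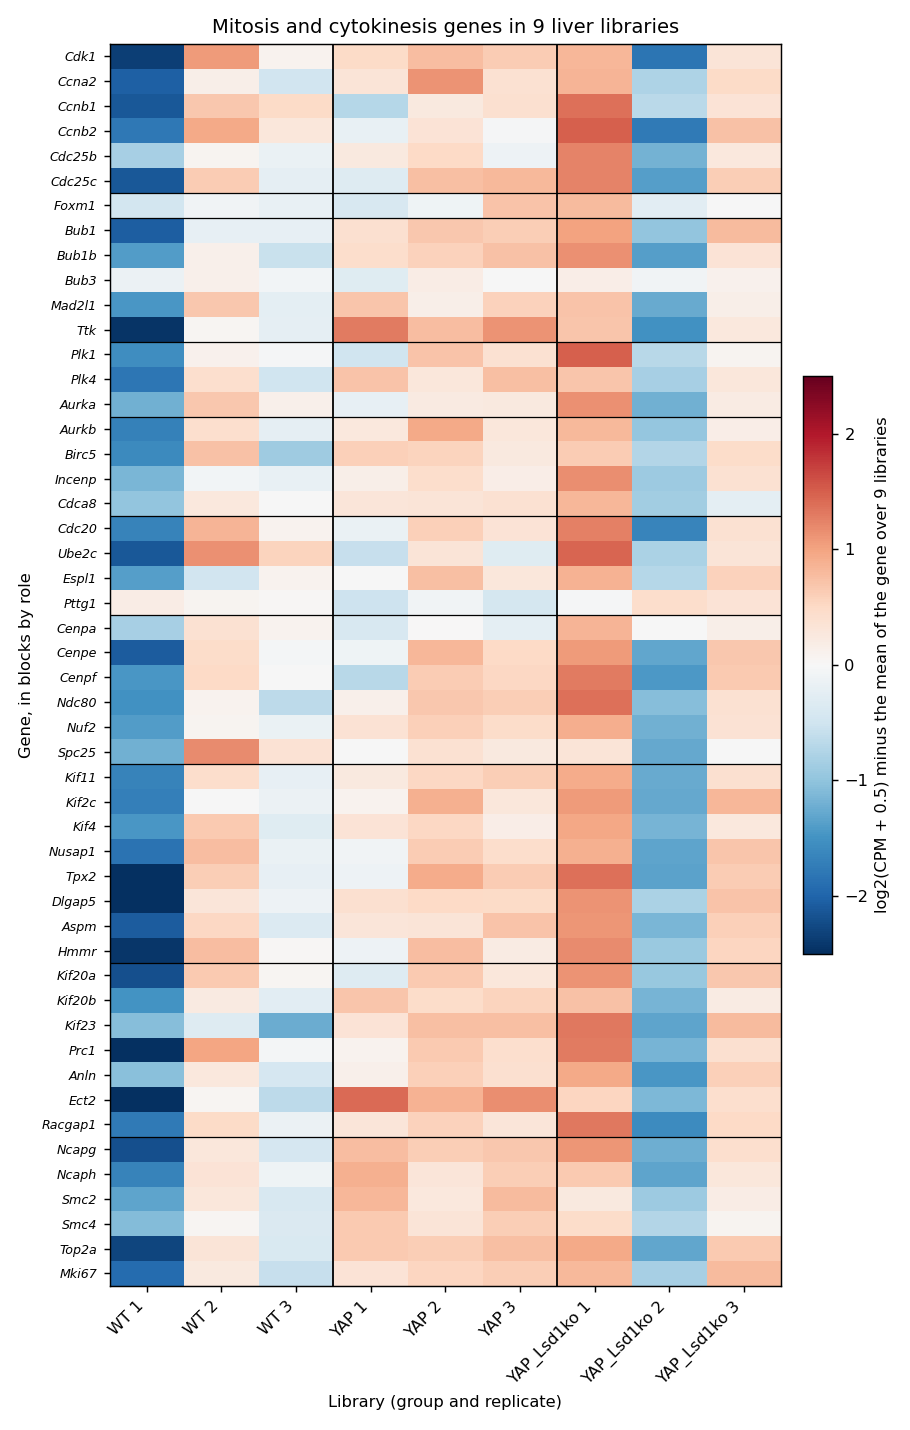
Each row is 1 of the 50 genes, in blocks by role, and each column is 1 library. Colour gives log2(CPM + 0.5) minus the gene's mean over the 9 libraries. WT replicate 1 and YAP_Lsd1ko replicate 2 are blue over nearly all rows, and YAP_Lsd1ko replicate 1 is the reddest column for 37 genes, while Bub3 and Pttg1 stay pale.

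Levels were also divided by the number of introns in the transcript of the gene that has the most introns. Per such intron, averaged over all libraries, the genes covered a wide range. Securin (Pttg1) led with 6.96 CPM per intron, followed by the checkpoint protein gene Bub3 with 5.38, the condensin ATPase gene Smc4 with 4.17, the kinetochore subunit gene Spc25 with 3.94, topoisomerase II alpha (Top2a) with 2.52 and Cdk1 with 2.44. At the bottom stood the separase gene Espl1 with 0.0942 CPM per intron, the phosphatase gene Cdc25c with 0.156 and Foxm1 with 0.197. Pttg1 and Bub3 differed from the other leading genes in their spread. Between the highest and lowest library of a group Pttg1 varied at most 1.38-fold and Bub3 at most 1.41-fold, against 12.7-fold for Cdk1 and 6.39-fold for Top2a.

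Because nearly all of these genes moved together from library to library, their promoters were searched for the motifs named above. RefSeq start sites (GRCm38.p6) were found for 41 of the 50 genes, in 44 windows of 300 bases that run from 250 bases before to 50 after the start. Bub3, Ect2 and Prc1 have 2 overlapping windows each, so the shares of windows below count their shared motifs in both. The CHR, spelled TTTGAA and searched on both strands, was in 75% of these windows and in 17.9% of all 32851 windows of the same length. A variant, TTCGAA, was in 9.09% and 1.56%. The CCAAT box, CCAAT on either strand, was in 75% and 37.4%. A CHR or its variant together with a CCAAT box was in 70.5% of the windows of the listed genes and in 7.52% of all windows. With 1 window per gene, that with the lower coordinates, there were 43 matches to the CHR or its variant, and they clustered near the start, with the median first base at position 3, counting the first transcribed base as 1. Counting only matches from 100 bases before the start onward, 75% of the windows of the listed genes and 8.59% of all windows held at least 1. Neither CHR spelling was found in the windows of Birc5, Ccnb1, Cenpe, Mad2l1, Ncaph, Nuf2, Nusap1, Plk4 and Pttg1. Apart from Pttg1, at 1.11-fold, these genes also varied between WT libraries, from 3.23-fold for Nuf2 to 11.5-fold for Ccnb1. Some start sites, such as those of Pttg1 and Kif2c, lie inside annotated introns, so a window need not be the promoter in use. A match is a description of letters, not evidence of binding.

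**Figure D2:**
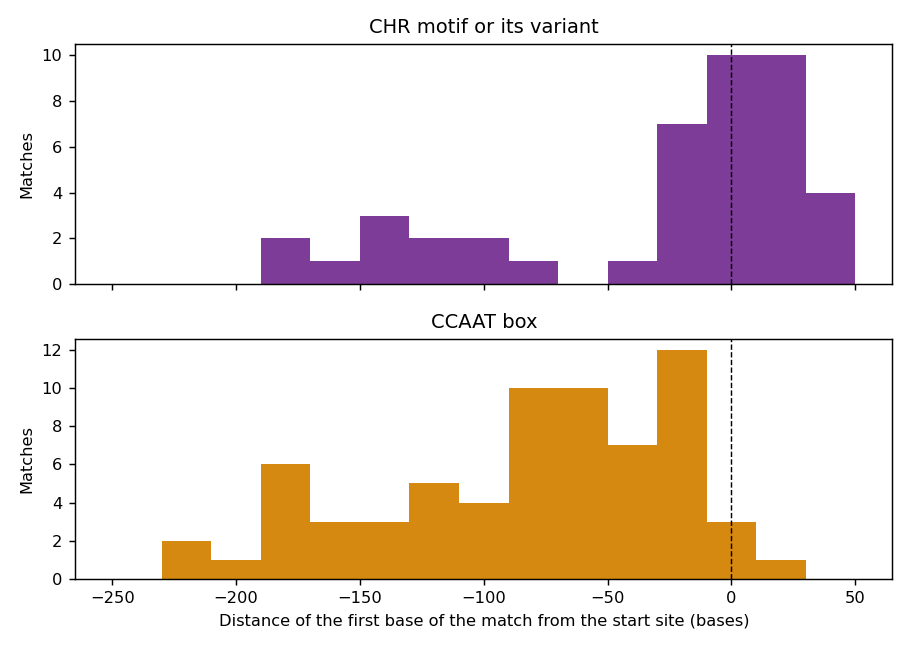
Histograms give the number of motif matches in the promoter windows of 41 genes, 1 window per gene, by the distance of the first base from the start site, in bins of 20 bases, with the CHR or its variant above and the CCAAT box below. CHR matches gather around the start site, where the median match begins at base 3, and CCAAT boxes lie mostly before it.

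The following windows are shown because they contrast members that swung between libraries with the 2 that did not. The swinging members shown all hold a CHR, whereas members without one swung as well. They run from 120 bases before to 30 after the start, 5′ to 3′ on the strand of the gene, with the CHR, its variant and CCAAT boxes on either strand in capitals. Cdk1 is at chr10:69352883-69353032, Ccnb2 at chr9:70421525-70421674, Top2a at chr11:99024160-99024309, Kif23 at chr9:61946770-61946919, Ect2 (the 1 of its 2 windows with the lower coordinates) at chr3:27153825-27153974 and Pttg1 at chr11:43425952-43426101, all on the minus strand, and Bub3 (likewise the 1 of 2) at chr7:131560250-131560399 on the plus strand.
Cdk1: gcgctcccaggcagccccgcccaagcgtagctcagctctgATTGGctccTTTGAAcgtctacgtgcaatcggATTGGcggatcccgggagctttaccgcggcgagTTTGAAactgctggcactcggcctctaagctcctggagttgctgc
Ccnb2: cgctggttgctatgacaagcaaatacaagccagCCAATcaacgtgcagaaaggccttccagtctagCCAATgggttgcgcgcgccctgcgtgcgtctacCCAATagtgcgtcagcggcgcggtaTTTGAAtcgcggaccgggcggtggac
Top2a: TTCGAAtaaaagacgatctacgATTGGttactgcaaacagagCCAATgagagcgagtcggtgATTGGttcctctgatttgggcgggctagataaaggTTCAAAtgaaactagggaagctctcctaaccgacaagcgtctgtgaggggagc
Ect2: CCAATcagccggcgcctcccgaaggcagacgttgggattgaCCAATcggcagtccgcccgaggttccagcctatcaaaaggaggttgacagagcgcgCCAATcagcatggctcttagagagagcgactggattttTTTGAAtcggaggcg
Kif23: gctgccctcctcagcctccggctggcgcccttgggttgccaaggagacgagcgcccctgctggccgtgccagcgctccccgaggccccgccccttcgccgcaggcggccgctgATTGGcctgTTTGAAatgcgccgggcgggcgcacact
Pttg1: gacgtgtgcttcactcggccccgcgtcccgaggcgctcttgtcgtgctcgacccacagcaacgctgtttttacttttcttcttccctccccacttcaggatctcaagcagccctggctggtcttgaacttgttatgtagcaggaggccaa
Bub3: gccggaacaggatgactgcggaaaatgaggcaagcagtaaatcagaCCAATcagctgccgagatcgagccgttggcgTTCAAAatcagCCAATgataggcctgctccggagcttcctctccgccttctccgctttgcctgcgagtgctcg
Cdk1 has a CHR beginning 15 bases before the start and another at 71 bases before it, Ccnb2 has one at base 5, Kif23 at base 3 and Ect2 at base 16. The Pttg1 stretch holds none of the motifs. Its start site lies inside an annotated intron of the gene (chr11:43425682-43426200), and the gene is annotated to begin at 43426251. Sequence before that position was not searched. The junction across that intron had 5 reads over all libraries, against 407 for the junction at chr11:43424898-43425582. Which start site is in use was not tested. Bub3 holds a CHR on the opposite strand and a pair of CCAAT boxes although its level hardly varied.

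YAP was compared with WT to ask what the transgene changes in liver. Most of the 50 genes were higher on average in YAP, but 0 of 50 passed the test in either direction (edgeR, adjusted p under 0.05), where 17.4% of all 10897 genes tested passed, 7.44% higher and 10% lower. The median log2 fold change of the 50 genes was 0.74, against 0.00 over all genes, and 44 of 50 had a value above 0, against 5450 of 10897. Their SE was large, with a median of 0.61 against 0.22 over all genes. In 17 genes each YAP library was above each WT library (21.5% of all genes), and in 1, Pttg1, each was below (22.8%). At an unadjusted p under 0.05 there were 6 of 50, Ttk, Pttg1, Kif23, Ect2, Smc2 and Smc4, against 34.4% of all genes.

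WT replicate 1 and WT replicate 2 pulled these values apart. Without WT replicate 1 the median log2 fold change was 0.35, and without WT replicate 2 it was 1.24, when 33 genes in place of 17 had each YAP library above each WT library (29.3% of all genes in that setting). In 14 genes every YAP library was below WT replicate 2 (Cdk1, Ccnb1, Ccnb2, Aurka, Birc5, Cdc20, Ube2c, Pttg1, Cenpa, Spc25, Kif4, Nusap1, Hmmr and Prc1). The share of all genes placed so was not counted. With DESeq2 4 of 50 genes passed (Ect2, Kif23, Smc4 and Ttk, against 23% of all genes). The same 4 passed with edgeR (24.5% of all genes) without the library labelled YAP_Lsd1ko replicate 2, which is in neither group but shares in the estimate of the spread.

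**Figure D3:**
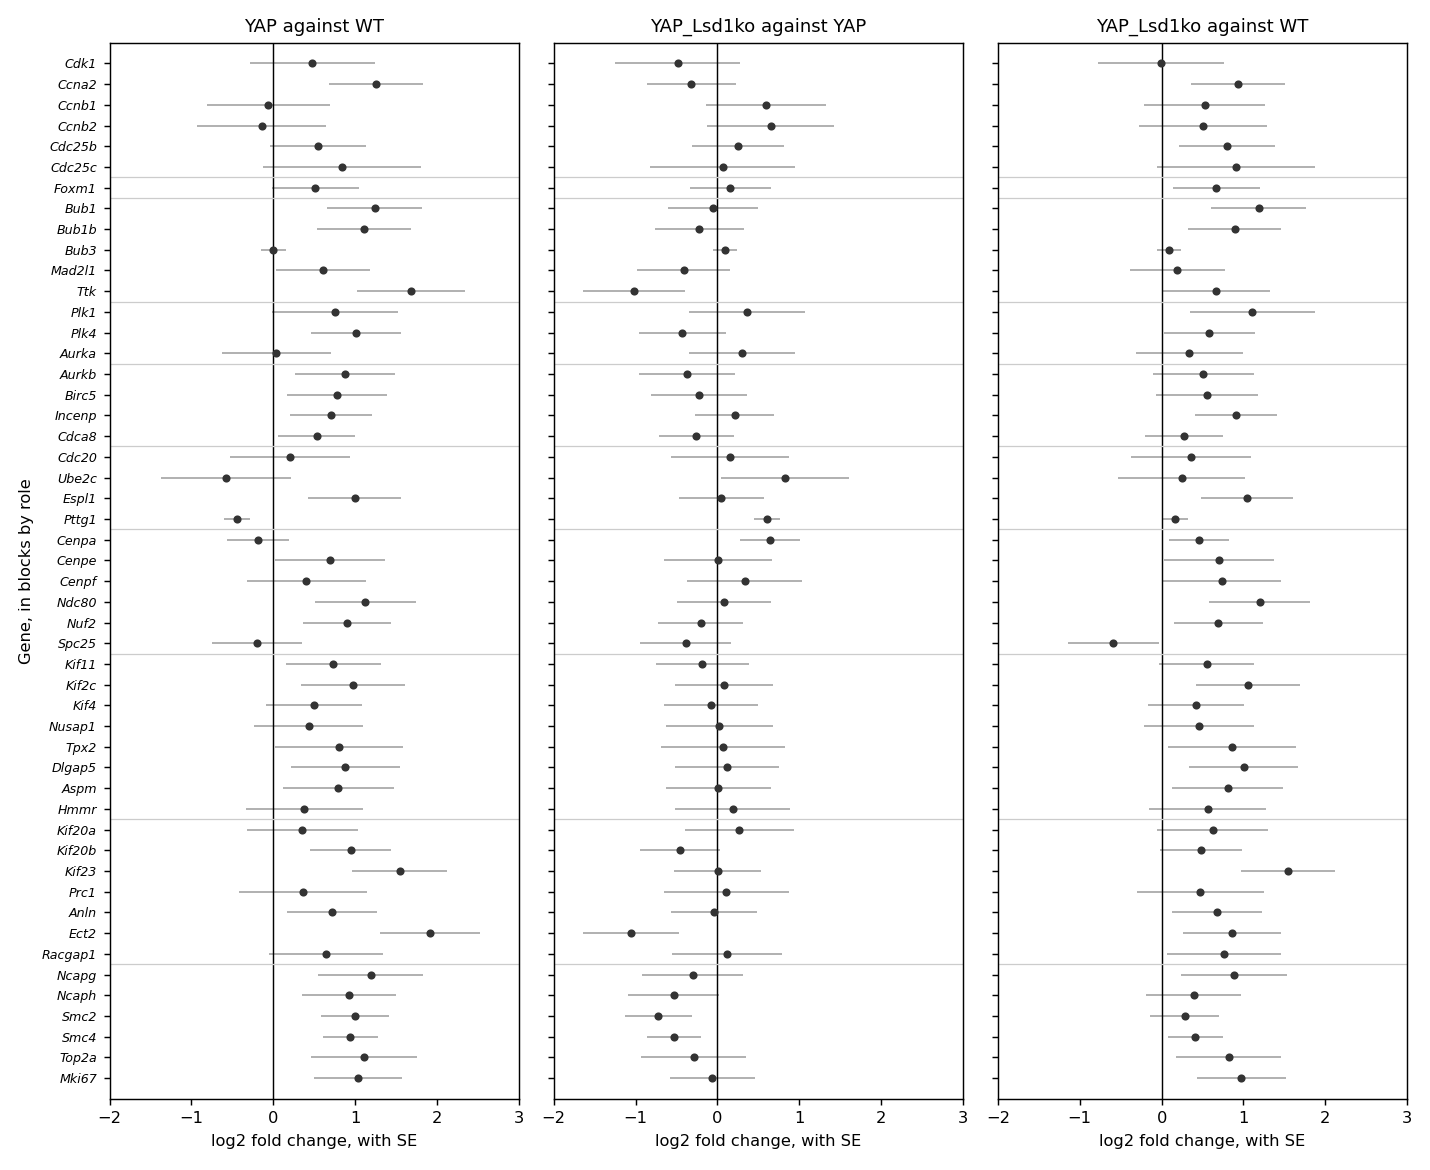
Points give the log2 fold change of each gene and bars its SE, in blocks by role, for the 3 comparisons. Against WT most points lie above 0 in both transgenic groups, and between YAP_Lsd1ko and YAP they scatter about 0, with Pttg1 and Bub3 showing the shortest bars.

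CDK1 and its activators, 6 genes, summed to 9.10, 75.6 and 45.1 CPM in WT replicates 1 to 3 and to 49.1, 72.2 and 57.6 CPM in YAP. Cdk1, the kinase that triggers mitosis, stood at 2.6, 33.0 and 16.3 CPM in WT, 21.7, 26.6 and 24.1 CPM in YAP and 27.6, 3.97 and 19.5 CPM in YAP_Lsd1ko. WT replicate 2 was above every YAP library, the groups overlapped, and the difference between YAP and WT did not pass (log2 fold change 0.48 with SE 0.77, adjusted p = 0.698; -0.013 without WT replicate 1). Ccnb2, a B-type cyclin that activates CDK1, stood at 2.44, 19.0 and 11.9 CPM in WT, 8.47, 12.3 and 9.49 CPM in YAP and 28.1, 2.48 and 16.4 CPM in YAP_Lsd1ko. Here, too, WT replicate 2 was above every YAP library, and YAP_Lsd1ko replicate 1 was the highest of all. Ccna2, the cyclin of S phase and G2, was the 1 gene of this role whose YAP libraries were all above WT (11.2 to 19.9 CPM against 1.79 to 9.88). Ccnb1 spanned 0.650 to 7.49 CPM in WT and 2.58 to 6.08 CPM in YAP. The activating phosphatases were low, with Cdc25b at 1.63 to 3.45 CPM in WT and 2.92 to 4.77 in YAP, and Cdc25c at 0 to 2.85 and 1.23 to 3.28. Foxm1, which encodes the transcription factor of G2 and M phase genes, was low, at 0.813, 1.20 and 1.08 CPM in WT, 0.859, 1.16 and 2.43 CPM in YAP and 2.61, 0.992 and 1.29 CPM in YAP_Lsd1ko, and its groups overlapped (log2 fold change 0.51 with SE 0.53, adjusted p = 0.531; -0.029 without YAP replicate 3).

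Spindle checkpoint genes had a median log2 fold change of 1.11 between YAP and WT. Bub1b, whose product BUBR1 holds back the anaphase-promoting complex, stood at 4.39, 13.5 and 8.24 CPM in WT, 17.1, 18.7 and 20.8 CPM in YAP and 27.9, 4.47 and 15.7 CPM in YAP_Lsd1ko. All YAP libraries were above all WT libraries, while YAP_Lsd1ko replicate 1 was the highest and the library labelled replicate 2 among the lowest of the 9 (log2 fold change 1.11 with SE 0.57, adjusted p = 0.203). Bub1, a checkpoint kinase at the kinetochore, likewise had no overlap between YAP (10.3 to 12.6 CPM) and WT (1.46 to 6.62 CPM). Ttk (chr9:83834689-83872389), the MPS1 kinase that starts the checkpoint signal, was chosen for its full values after they were seen and stood at 1.14, 8.84 and 7.16 CPM in WT, 21.7, 14.8 and 19.1 CPM in YAP and 14.1, 2.65 and 10.2 CPM in YAP_Lsd1ko. Every YAP library was above every library of the other groups (log2 fold change 1.68 with SE 0.66, adjusted p = 0.108). All 19 of its introns with at least 20 reads were higher in YAP than in WT. Introns of 1 gene are read in the same libraries, so here and below their agreement is not replication. Mad2l1, the inhibitor of CDC20, overlapped at 3.09 to 15.3 CPM in WT and 10.4 to 15.5 in YAP. Bub3, a WD-repeat partner of BUB1 and BUBR1, stood at 38.5, 46.7 and 41.1 CPM in WT, 34.7, 49.1 and 42.7 CPM in YAP and 48.0, 40.4 and 46.3 CPM in YAP_Lsd1ko. Its groups overlapped completely and no library stood apart.

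Mitotic kinases beyond CDK1 were read at low levels. Plk4, the kinase of centriole duplication, stood at 1.79, 10.2 and 5.13 CPM in WT, 12.6, 9.19 and 12.9 CPM in YAP and 12.3, 3.97 and 9.16 CPM in YAP_Lsd1ko, with WT replicate 2 above YAP replicate 2 (log2 fold change 1.01 with SE 0.55, adjusted p = 0.225; 0.61 without WT replicate 1 and 1.71 without WT replicate 2). Aurka, the centrosome kinase Aurora A, stood at 0.975, 4.94 and 3.24 CPM in WT, 2.46, 3.49 and 3.53 CPM in YAP and 7.0, 0.992 and 3.45 CPM in YAP_Lsd1ko, with every YAP library inside the range of WT. Plk1, which acts from centrosome maturation to cytokinesis, reached at most 6.28 CPM, in YAP_Lsd1ko replicate 1, and overlapped between YAP and WT. In the chromosomal passenger complex, which corrects kinetochore attachments and later moves to the midzone, Incenp, the scaffold, stood at 2.44, 5.69 and 5.27 CPM in WT, 6.75, 8.37 and 6.81 CPM in YAP and 14.1, 2.98 and 7.97 CPM in YAP_Lsd1ko. Its YAP libraries were all above WT (log2 fold change 0.70 with SE 0.50, adjusted p = 0.355). Birc5, the survivin subunit, stood at 1.14, 7.79 and 2.16 CPM in WT, 7.0, 6.75 and 5.35 CPM in YAP and 7.23, 2.48 and 6.36 CPM in YAP_Lsd1ko, and WT replicate 2 was the highest of the 9 (log2 fold change 0.78 with SE 0.61, adjusted p = 0.403). Without WT replicate 2 Birc5 passed (log2 fold change 1.91, adjusted p = 0.0375). Borealin (Cdca8) had YAP at 5.89 to 6.20 CPM above WT at 2.11 to 5.69, and Aurora B (Aurkb) overlapped.

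Of the 4 genes of the anaphase-promoting complex pathway and sister separation 2, Cdc20 and Espl1, were higher on average in YAP than in WT and 2, Pttg1 and Ube2c, were lower, with a median log2 fold change of -0.12. Pttg1, securin, which blocks separase until anaphase, stood at 38.8, 35.9 and 34.9 CPM in WT, 23.7, 32.0 and 25.1 CPM in YAP and 33.6, 46.1 and 43.2 CPM in YAP_Lsd1ko. Every YAP library was below every WT and every YAP_Lsd1ko library, all 4 introns with at least 20 reads were lower in YAP than in WT, and the difference did not pass (log2 fold change -0.44 with SE 0.16, adjusted p = 0.0859; -0.44 and adjusted p = 0.0467 without YAP_Lsd1ko replicate 1). Cdc20, an activator of the complex, stood at 2.6, 17.2 and 9.996 CPM in WT, 8.22, 14.3 and 11.9 CPM in YAP and 23.0, 2.65 and 12.3 CPM in YAP_Lsd1ko, with YAP between the WT extremes. Ube2c, its ubiquitin-conjugating enzyme, chosen after its values were seen, stood at 0.813, 12.1 and 7.97 CPM in WT, 3.31, 6.63 and 4.13 CPM in YAP and 15.2, 2.81 and 6.68 CPM in YAP_Lsd1ko. WT replicate 2 was above every YAP library, and Ube2c had the lowest fold change of the 50 genes between YAP and WT. The separase gene Espl1 stayed at or below 4.98 CPM in every library, and YAP (2.46 to 4.54 CPM) overlapped WT (0.650 to 2.7 CPM; log2 fold change 0.99 with SE 0.56, adjusted p = 0.243, and log2 fold change 1.54 without WT replicate 3).

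**Figure D4:**
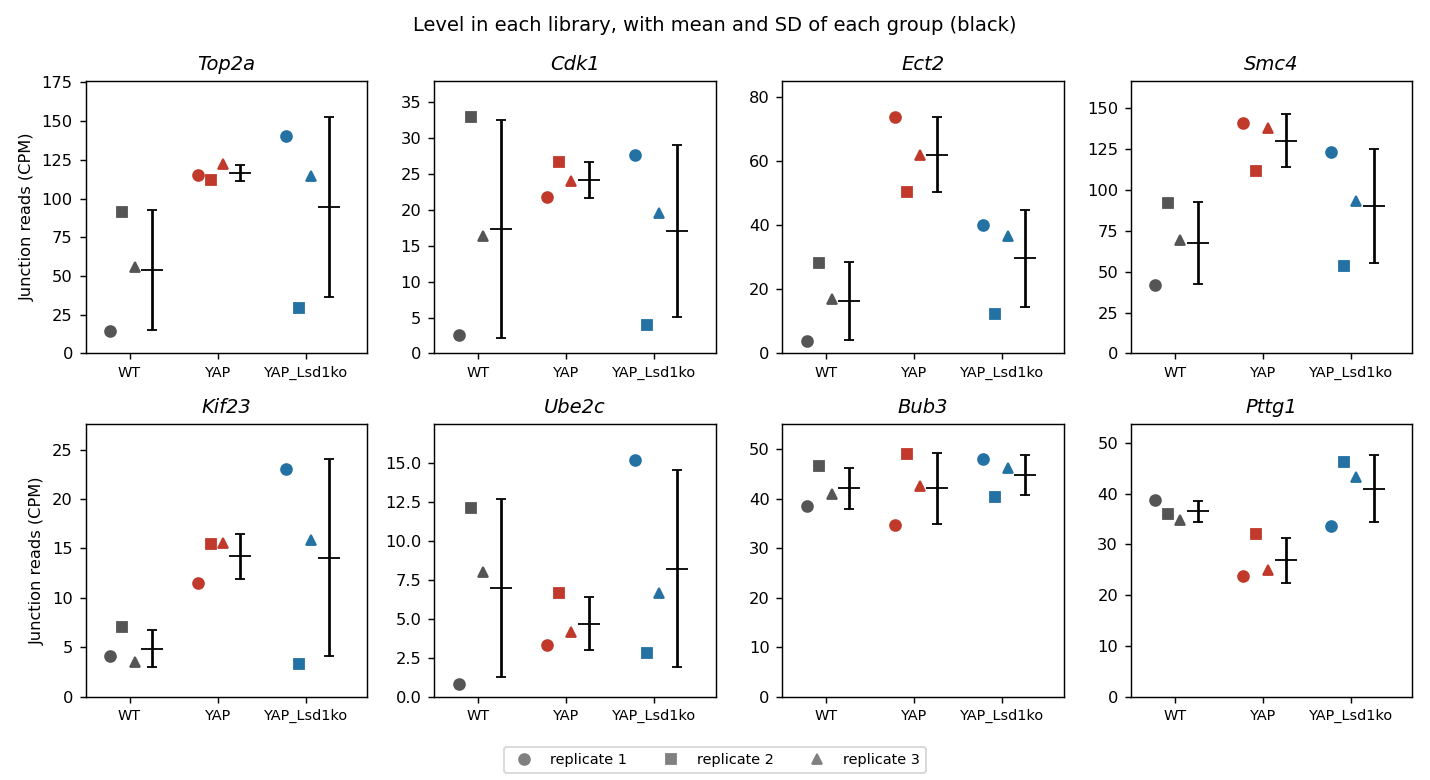
Each panel gives 1 gene, with CPM on a linear axis from 0, 1 point per library (circle, square and triangle for replicates 1, 2 and 3) and the group's mean with its SD in black. Ect2, Smc4, Kif23 and Top2a have all YAP points above all WT points, Cdk1 and Ube2c have WT replicate 2 above the YAP points, Bub3 is level, and Pttg1 is lowest in YAP.

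Centromere and kinetochore genes were mixed. Spc25, a subunit of the NDC80 complex that grips microtubules, stood at 8.78, 48.1 and 27.2 CPM in WT, 20.9, 27.6 and 24.8 CPM in YAP and 26.4, 8.27 and 20.7 CPM in YAP_Lsd1ko, with WT replicate 2 far above all other libraries. Its complex partners differed from it: Ndc80 had YAP at 6.63 to 9.89 CPM above WT at 1.79 to 6.44, and Nuf2 had YAP at 7.73 to 9.30 CPM above WT at 1.95 to 6.29. Cenpe, a kinesin that carries chromosomes to the spindle equator, stood at 3.74, 24.0 and 16.8 CPM in WT, 16.1, 31.4 and 24.7 CPM in YAP and 37.0, 6.78 and 28.1 CPM in YAP_Lsd1ko, with overlap between all groups (log2 fold change 0.69 with SE 0.67, adjusted p = 0.501). Cenpf, a large kinetochore protein, and Cenpa, the centromeric histone H3 variant, overlapped between YAP and WT as well, and Cenpa was at most 6.29 CPM in both.

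Spindle motors and assembly factors all had fold changes above 0, with a median of 0.76 on the log2 scale. Kif11, the motor that pushes spindle poles apart, stood at 5.20, 24.1 and 15.3 CPM in WT, 21.2, 25.7 and 27.5 CPM in YAP and 34.0, 7.11 and 23.7 CPM in YAP_Lsd1ko, and WT replicate 2 lay within the range of YAP (log2 fold change 0.73 with SE 0.58, adjusted p = 0.403). Hmmr, which links spindle microtubules and centrosomes, stood at 2.44, 26.5 and 15.7 CPM in WT, 14.0, 26.4 and 17.8 CPM in YAP and 35.2, 7.77 and 22.6 CPM in YAP_Lsd1ko, with WT replicate 2 above every YAP library. Of the other 6 genes, the microtubule depolymerase Kif2c (YAP 6.26 to 11.3 CPM, WT 1.46 to 5.84) and the spindle assembly factor Dlgap5 (10.1 to 10.7 against 0.813 to 9.29) did not overlap between YAP and WT. Kif4, Nusap1, Tpx2 and Aspm did.

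Central spindle and cytokinesis genes included Ect2, with the largest fold change of the 50, and Kif23. Ect2, the exchange factor that activates RhoA at the cleavage furrow (chr3:27097222-27153878), stood at 3.90, 28.2 and 17.2 CPM in WT, 73.9, 50.5 and 62.1 CPM in YAP and 40.2, 12.2 and 36.6 CPM in YAP_Lsd1ko. Every YAP library was above every library of the other groups, at 3.77-fold in the fit over WT (means of 62.2 ± 11.7 against 16.4 ± 12.1 CPM, SD, n = 3), and its adjusted p was the smallest of the 50 (log2 fold change 1.91 with SE 0.61, adjusted p = 0.0607). All 26 of its introns with at least 20 reads were higher in YAP than in WT, as were all 35 of Top2a, whose adjusted p was 0.259. Ect2 passed with DESeq2, without WT replicate 2, without the library labelled YAP_Lsd1ko replicate 2, with the 6 libraries alone, with scaling by library size and with the median over junctions (adjusted p between 0.00829 and 0.0487). It did not pass under the other 12 alternatives (adjusted p up to 0.440, with replicate 3 of every group left out). Its log2 fold change was 1.47 without WT replicate 1 and 2.54 without WT replicate 2. An Ect2 junction that skips an annotated exon (chr3:27147020-27148992) had 17 reads in WT, 67 in YAP and 29 in YAP_Lsd1ko. The junctions on either side of that exon had 6 and 10 reads for WT, 21 and 21 for YAP and 10 and 12 for YAP_Lsd1ko.

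Kif23 (chr9:61915905-61946774), the motor subunit of centralspindlin, which recruits ECT2, was chosen for its full values after they were seen and stood at 4.06, 7.04 and 3.51 CPM in WT, 11.5, 15.5 and 15.6 CPM in YAP and 23.0, 3.31 and 15.8 CPM in YAP_Lsd1ko. Its YAP libraries were all above WT, and YAP_Lsd1ko held both the highest and the lowest library (log2 fold change 1.54 with SE 0.58, adjusted p = 0.0970). Racgap1, the other centralspindlin subunit, overlapped between YAP (10.4 to 12.8 CPM) and WT (2.11 to 11.8 CPM). Kif20a, which brings the passenger complex to the midzone, stood at 3.90, 31.0 and 20.3 CPM in WT, 15.6, 31.2 and 24.0 CPM in YAP and 43.4, 9.92 and 31.3 CPM in YAP_Lsd1ko, with WT replicate 2 inside the range of YAP (log2 fold change 0.35 with SE 0.68, adjusted p = 0.748; -0.10 without WT replicate 1). The related motor gene Kif20b had YAP (20.4 to 24.1 CPM) above WT (4.88 to 17.2). Anillin (Anln), the scaffold of the contractile ring, and the microtubule bundler Prc1 overlapped.

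Chromosome structure genes were the role with the most even difference, between 0.93 and 1.19 on the log2 scale in all 6 genes. Smc4 (chr3:69004738-69034623), an ATPase subunit of both condensins, stood at 41.6, 91.8 and 69.6 CPM in WT, 141, 112 and 138 CPM in YAP and 123, 53.4 and 93.4 CPM in YAP_Lsd1ko. All YAP libraries were above all WT libraries, all 21 of its introns with at least 20 reads were higher in YAP, and the difference did not pass (log2 fold change 0.94 with SE 0.34, adjusted p = 0.0856). Its partner Smc2, chosen after its values were seen, stood at 13.5, 41.9 and 25.8 CPM in WT, 61.7, 41.3 and 60.0 CPM in YAP and 40.9, 18.0 and 39.3 CPM in YAP_Lsd1ko, where YAP replicate 2 was just under WT replicate 2 (log2 fold change 1.0 with SE 0.42, adjusted p = 0.126). Top2a, which untangles sister DNA, stood at 14.3, 91.4 and 55.9 CPM in WT, 115, 112 and 122 CPM in YAP and 141, 29.3 and 114 CPM in YAP_Lsd1ko. The YAP libraries lay close together and above all WT libraries, and the YAP_Lsd1ko libraries held the highest of the 9 and the next to lowest (log2 fold change 1.11 with SE 0.65, adjusted p = 0.259; 0.67 without WT replicate 1 and 1.72 without WT replicate 2). Ncapg, a condensin I subunit, and Mki67, whose protein coats mitotic chromosomes, had no overlap between YAP and WT. Ncaph, another subunit, had YAP replicate 2 (9.19 CPM) just under WT replicate 2 (9.44 CPM).

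YAP_Lsd1ko was compared with YAP to ask what the Lsd1 knockout adds to the transgene. Its reading is limited in that 1 of its libraries had Kdm1a at the level of WT and that Yap1 was lower as well. The 50 genes were about as often higher as lower, with 27 above 0 and a median log2 fold change of 0.01 against -0.01 over all genes (17 above 0, with a median of -0.095 against -0.14 over all genes, under scaling by library size alone). With edgeR 0 of 50 passed, against 2.12% of all genes, 1.75% higher and 0.367% lower. At an unadjusted p under 0.05 there was 1 (Pttg1, against 18.6% of all genes), and with DESeq2 also 1, again Pttg1, against 6.53%. Each YAP_Lsd1ko library was above each YAP library in 1 gene, Pttg1 (12.5% of all genes), and below in 3, Ttk, Ect2 and Smc2 (11.5%). Leaving out YAP_Lsd1ko replicate 1 gave a median of -0.57 and leaving out the library labelled replicate 2 gave 0.39, so 1 library on either side set its sign. Without the former 14 genes were lower in every library (24.2% of all genes in that setting), and without the latter 11 were higher (17.1%).

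Ect2 averaged 29.7 ± 15.2 CPM in YAP_Lsd1ko (log2 fold change -1.06 with SE 0.58, adjusted p = 0.368), and all 26 of its introns with at least 20 reads were lower there than in YAP. For Ttk 18 of 19 introns were lower (log2 fold change -1.02 with SE 0.63, adjusted p = 0.413). Both condensin ATPase genes were lower on average, Smc2 without overlap between the groups (log2 fold change -0.72 with SE 0.41, adjusted p = 0.380) and Smc4 with YAP_Lsd1ko replicate 1 above YAP replicate 2 (log2 fold change -0.53 with SE 0.33, adjusted p = 0.425). Pttg1 was higher, at 41.0 ± 6.58 against 26.9 ± 4.45 CPM (SD, n = 3), with an adjusted p that was the smallest of the 50 (log2 fold change 0.60 with SE 0.16, adjusted p = 0.0968). It passed with DESeq2 (adjusted p = 0.0312) and without YAP_Lsd1ko replicate 1 (adjusted p = 0.0249), and under scaling by library size alone its groups overlapped in this comparison and in that of YAP with WT. Ccnb2 was an example of a gene whose sign rested on 1 library (log2 fold change 0.65 with SE 0.77, adjusted p = 0.675; -0.051 without YAP_Lsd1ko replicate 1).

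YAP_Lsd1ko against WT asks how far livers with both changes stood from wild type. The median log2 fold change was 0.64, with 48 of 50 genes above 0 (5432 of 10897 over all genes), and 0 of 50 passed with edgeR, against 2.05% of all genes, 1.12% higher and 0.927% lower. With DESeq2 0 of 50 passed as well (5.48% of all genes), and at an unadjusted p under 0.05 there was 1, Kif23 (log2 fold change 1.54 with SE 0.58, adjusted p = 0.238; 15.2% of all genes). No gene had its groups apart, in either direction (7.68% and 9.91% of all genes). The library labelled YAP_Lsd1ko replicate 2 was below WT replicate 2 for 49 of 50 genes, a count not made over all genes. Without that library 25 were higher in every remaining library (19% of all genes in that setting) and Kif23 was the 1 member that passed (5.52% of all genes, log2 fold change 1.99, adjusted p = 0.00780). The median was 0.15 without YAP_Lsd1ko replicate 1 and 1.11 without WT replicate 2. Ect2 (log2 fold change 0.86 with SE 0.60, adjusted p = 0.570) and Top2a (log2 fold change 0.82 with SE 0.65, adjusted p = 0.620) were among those higher on average. Without WT replicate 2 these values were 1.48 and 1.43.

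Other genes of the pathway were read from lists drawn up by function. Of 97 further mitosis genes 94 were tested, and between YAP and WT 10 rose and 2 fell, where 7.44% of all genes were called higher and 10% lower, with a median log2 fold change of 0.52. Cenpk, of the inner kinetochore, rose (from 2.6, 4.64 and 4.05 to 14.1, 10.5 and 14.5 CPM, log2 fold change 1.78 with SE 0.31, adjusted p = 0.00602), and so did Cenph, Cenpn, Cenpp, Cenpq, Nsl1, Pmf1 and Ska2, together with Anapc4 and the cohesin gene Smc3. Hjurp, the chaperone that loads CENP-A, fell by 0.81 on the log2 scale (adjusted p = 0.0104), and Cenpm fell as well (adjusted p = 0.0198). In the comparisons of YAP_Lsd1ko with YAP and with WT 0 of 94 passed (2.12% and 2.05% of all genes). Regulators of cell cycle transcription gave 4 that rose (E2f1, Lin9, Nfya and Rb1) and 1 that fell (Nfyb, log2 fold change -1.10, adjusted p = 0.00905) of 19 tested between YAP and WT (7.44% and 10% of all genes). In the other comparisons 0 of 19 passed (2.12% and 2.05% of all genes). Nfya and Nfyb encode subunits of the CCAAT-binding factor NF-Y, Lin9 a MuvB subunit.

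Genes of DNA replication, which act before mitosis, had a larger median log2 fold change, 1.35 between YAP and WT. Of 24 tested 6 rose (Gins1, Mcm4, Mcm7, Pcna, Pola1 and Pole) and 1 fell (Mcm10), against 7.44% and 10% of all genes. Pcna, the sliding clamp, stood at 28.9, 43.0 and 35.1 CPM in WT and at 89.98, 58.3 and 72.4 CPM in YAP (log2 fold change 1.04 with SE 0.19, adjusted p = 0.00664). The summed level of the replication list was 375, 611 and 486 CPM in WT and 1237, 719 and 973 CPM in YAP. It was 654, 416 and 556 CPM in YAP_Lsd1ko replicates 1 to 3. YAP_Lsd1ko replicate 1, the highest library of the mitosis genes, was thus below every YAP library here. As with the mitosis genes, WT replicate 1 and the library labelled YAP_Lsd1ko replicate 2 were the lowest of their groups. Between YAP_Lsd1ko and YAP 0 of 24 passed (2.12% of all genes), with a median of -0.81. Whether the 2 lists differed in their response was not tested.

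Markers of macrophages and Kupffer cells, non-parenchymal cells of the same tissue, shared their lowest WT and YAP_Lsd1ko libraries with the mitosis genes. Their summed level was 541, 1152 and 883 CPM in WT, 2455, 2867 and 2715 CPM in YAP and 2453, 527 and 1652 CPM in YAP_Lsd1ko, and none of the 10 was at 0 over the 9 libraries. The likeness was partial. WT replicate 2 was near YAP replicate 1 for the mitosis genes (915 against 918 CPM) but far below it here. YAP_Lsd1ko replicate 1, the highest library of the mitosis genes, was level with the lowest YAP library here (2453 against 2455 CPM). Between YAP and WT 5 of 10 rose (7.44% of all genes), among them the Kupffer cell lectin gene Clec4f (log2 fold change 1.58, adjusted p = 0.0339) and the phagocytic receptor gene Timd4 (1.70, adjusted p = 0.0178). The sum of the lymphocyte list was mostly Ptprc, which other white blood cells express too, so it does not mark lymphocytes alone. That sum was 47.1, 157 and 113 CPM in WT, 215, 324 and 288 CPM in YAP and 249, 51.1 and 176 CPM in YAP_Lsd1ko. Of its genes 0 of 5 tested passed in any comparison (17.4%, 2.12% and 2.05% of all genes). Neutrophil markers summed to 1.95, 7.49 and 6.89 CPM in WT, 19.0, 15.4 and 19.2 CPM in YAP and 15.2, 2.48 and 8.51 CPM in YAP_Lsd1ko, with no counted read for Ly6g. Between YAP and WT 2 of 3 tested rose (7.44% of all genes). Biliary markers, mostly Spp1, summed to 53.8, 108 and 80.8 CPM in WT, 1154, 970 and 1091 CPM in YAP and 621, 158 and 469 CPM in YAP_Lsd1ko. Of 5 tested 1, Spp1, rose both in YAP and in YAP_Lsd1ko against WT (7.44% and 1.12% of all genes).

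Markers of the other cell types were mixed. Endothelial markers summed to 746 to 864 CPM over all 9 libraries, and 2 of 8, Cdh5 and Lyve1, rose between YAP and WT (7.44% of all genes). Erythroid markers ran the opposite way, at 328, 118 and 218 CPM in WT, 66.3, 82.2 and 79.0 CPM in YAP and 103, 226 and 159 CPM in YAP_Lsd1ko, with no counted read for Gata1. Of 6 erythroid markers listed only 2 were tested, Alas2 and Tfrc, too few to show a change in erythroid cells. Both fell between YAP and WT (10% of all genes), and Tfrc fell between YAP_Lsd1ko and WT as well (0.927%). Stellate cell and fibroblast markers summed to 823, 1495 and 1223 CPM in WT, 478, 960 and 694 CPM in YAP and 948, 647 and 779 CPM in YAP_Lsd1ko. Here, too, WT replicate 1 and the library labelled YAP_Lsd1ko replicate 2 were the lowest of their groups. Of 8 tested 1 (Acta2) rose and 1 (Reln) fell between YAP and WT (7.44% and 10% of all genes), and Reln rose between YAP_Lsd1ko and YAP (1.75%). Hepatocyte markers summed to 126687 to 218881 CPM over the 9 libraries. Of 10 tested Ttr and Cyp2e1 fell between YAP and WT (10% of all genes). Cyp2e1 rose between YAP_Lsd1ko and YAP (1.75%), and Ttr fell between YAP_Lsd1ko and WT (0.927%). The part of these cells in the levels of the mitosis genes was not tested.

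**Figure D5:**
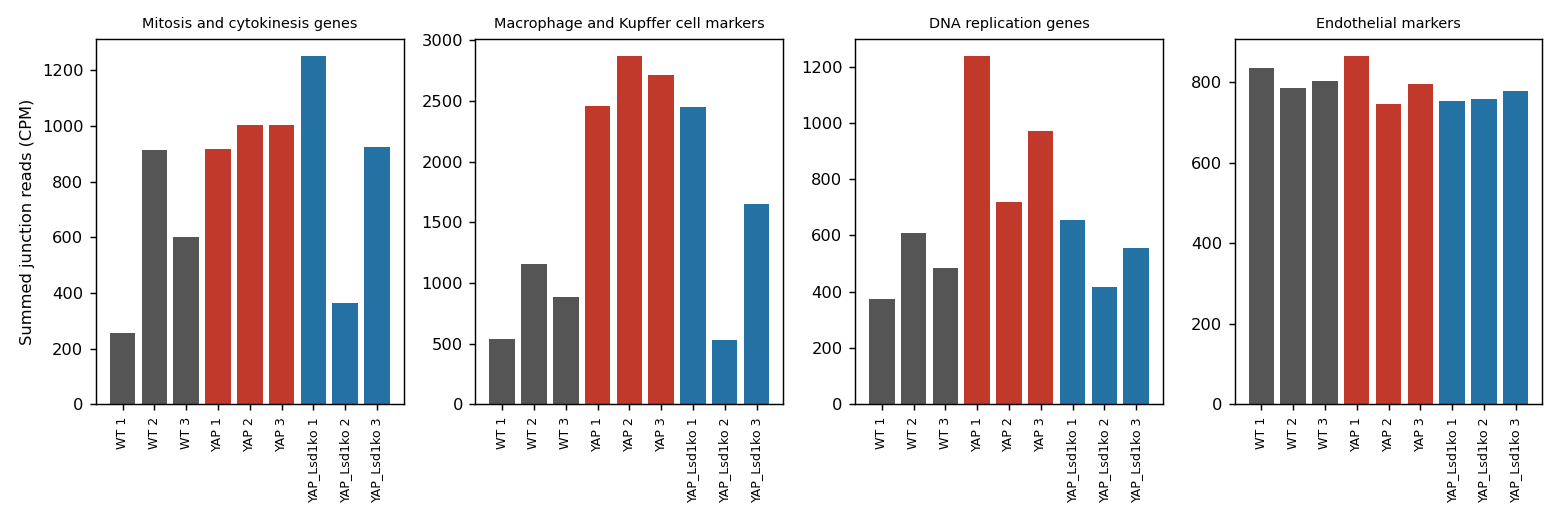
Bars give the summed CPM of a gene list in each library, on axes from 0, with WT in grey, YAP in red and YAP_Lsd1ko in blue. The mitosis genes, the macrophage markers and the replication genes are each lowest of their group in WT replicate 1 and YAP_Lsd1ko replicate 2. The replication genes peak in YAP, and the endothelial markers stay between 746 and 864 CPM.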

How the data were processed

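RNA was extracted from whole liver and sequenced as stranded total RNA after ribosomal RNA depletion, per the labels' protocols. The build mm10 and the tools STAR, featureCounts, edgeR, FastQC and bcl2fastq are named, with no version, in the submitters' processing notes. The deposited files are STAR splice junction tables whose values are raw counts of reads per junction, not normalized, and the longest overhang of a read (38 bases at most), per the layout of the files. Unique counts of annotated junctions were matched to GENCODE M21 introns of exactly 1 gene (150261 junctions) and summed per gene. A read across several junctions counts at each, so counts are not molecules. Genes without introns were not measured.

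Counts were tested with edgeR 4.0.16 (R 4.3.3), robust quasi-likelihood, filterByExpr and TMM, in 1 fit over 9 libraries, with Benjamini-Hochberg adjustment and a threshold of 0.05. SE is the absolute log2 fold change over the square root of F. DESeq2 1.42.0 was an alternative, and 18 alternatives were run in all. The script was tested on simulated data. Genes given in every library are the 2 most read of each role, and others are said to be chosen after their values were seen. The members and lists were chosen with earlier results of these data known. Promoters were searched in Python 3.11.15 and figures drawn with matplotlib 3.10.9.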

Additional observations from a re-analysis of the deposited data

How the results depend on the processing

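The count of mitosis and cytokinesis genes past the threshold between YAP and WT, 0 of 50, was 4 with DESeq2, 3 with only the 6 libraries compared (of 49 tested), 1 with scaling by library size alone and 1 with the median count over junctions (of 21 tested). With 1 library left out it ranged from 0 to 4. Between YAP_Lsd1ko and YAP it was 1 with DESeq2 and ranged from 0 to 1 with 1 library left out, and between YAP_Lsd1ko and WT it ranged from 0 to 1. The cause was not tested. Over all genes the counts of 1901, 231 and 223 in these 3 comparisons became 2508, 712 and 597 with DESeq2, 1126, 148 and 131 with the median count over junctions, 2640, 109 and 83 with 6 libraries, and 2545, 146 and 273 with library size alone. With 1 library left out they ranged from 748 to 2729, from 5 to 844 and from 32 to 614, and with replicate 3 of every group left out they were 0.

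No pairing of the libraries by replicate number was seen. The same-number correlations of deviations ran from -0.663 to 0.347, with 4 of 9 over 0.1, and a library correlated best with its own number in 7 of 18 cases. With deviations taken within groups of 3 libraries, these values cannot decide whether the experiment was paired. With the replicate block 0 of the 50 genes passed in each comparison, and over all genes 1027, 46 and 89 did. Scaling by library size alone moved the median of all genes by 0.31, -0.14 and 0.17 on the log2 scale, and the share of passing genes that were higher went from 42.7% to 75.9% between YAP and WT and from 54.7% to 76.2% between YAP_Lsd1ko and WT. With it 17 in place of 27 of the 50 genes were above 0 between YAP_Lsd1ko and YAP. Under the alternatives 29 single-gene log2 fold changes were followed, not those of all 50 genes in every comparison. Among these 29, those of 4 genes changed sign, each with 1 library left out. The signs of the genes not followed may be no more stable. Between YAP and WT, Cdk1 ranged from -0.013 without WT replicate 1 to 1.32 without WT replicate 2, Kif20a from -0.10 to 0.94 without the same libraries, and Foxm1 from -0.029 without YAP replicate 3 to 0.78 without YAP replicate 1. Between YAP_Lsd1ko and YAP, Ccnb2 ranged from -0.051 without YAP_Lsd1ko replicate 1 to 1.13 without the library labelled YAP_Lsd1ko replicate 2. Of 511 such values under the alternatives 478 kept direction and side of the threshold. Counts of genes apart in every library were added to the results after the data were seen.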
